A study of Mus musculus with 20 samples.

Results

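The imprinted miRNAs described here come from loci outside the Dlk1-Dio3 domain: miR-296 and miR-298 at the Gnas domain, miR-335 in Mest, miR-483 in Igf2 and miR-675 in H19. Both arms of each hairpin were looked for by name among the 1481 features of the deposited tables. A feature was found for 8 of the 10 names. The 8 are the 5p and 3p arms of miR-296, miR-298, miR-335 and miR-483. miR-675-5p and miR-675-3p had no row in the tables used here and were not analysed here. The set was chosen by locus and selected on 1 measured value, the level of miR-296-5p, which earlier results of these data had shown to be lower after oxygen-glucose deprivation, so all values for that treatment are a description: where members are counted against a threshold, the count is set beside that of all features and supports nothing. The contrasts between genotypes and the interaction were not used in the choice and were tested.

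Small RNA was sequenced from mouse cortical neurons taken at E15 (embryonic day 15) and grown as primary cultures for 7 days. All animals carry the strain label C57BL/6N-Cdr1asem1Nikr, wild type included, and are either WT or knockout for ciRS-7, the circular RNA Cdr1as, which neurons express and which binds miR-7. For 12 h the cultures had either normoxia, with 25 mM glucose and 0.2 mM pyruvate in the medium, or oxygen-glucose deprivation (OGD, a culture model of ischaemia) at 1% O2 in the same medium base without those supplements. Each of the 4 combinations had 5 biological replicates. Levels are in CPM, the read count of a miRNA scaled by the effective size of its library (the total times a factor recovered from the deposited values).

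Imprinted genes are transcribed from only one parental allele. In mouse, miR-296 and miR-298 come from the paternal allele of the Gnas domain, miR-335 and miR-483 lie in the paternally expressed genes Mest and Igf2, and miR-675 is cut from the maternally expressed H19 RNA. Each hairpin can yield a mature miRNA from its 5p arm and one from its 3p arm, and the arm loaded into Argonaute guides repression of mRNAs that pair with its seed. Both arms of a hairpin start from the same transcript.

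The mature sequences show which arm carries which seed; bases 2 to 8, the seed, are in capitals, and the sequences and their positions are RefSeq's on GRCm38.p6.
mmu-miR-296-5p: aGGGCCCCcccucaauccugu
mmu-miR-296-3p: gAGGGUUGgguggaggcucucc
mmu-miR-298-5p: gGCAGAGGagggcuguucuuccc
mmu-miR-298-3p: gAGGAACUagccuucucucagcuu
mmu-miR-335-5p: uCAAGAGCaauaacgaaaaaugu
mmu-miR-335-3p: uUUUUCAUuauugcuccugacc
mmu-miR-483-5p: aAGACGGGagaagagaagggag
mmu-miR-483-3p: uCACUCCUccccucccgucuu
All 8 members matched a RefSeq entry, as did 1248 of the 1481 features. No matched feature other than the member itself shared a member's seed. Mature lengths ran from 21 to 24 bases. The arms of miR-296 and miR-298-5p were rich in G and C (66.7% and 68.2% for the 5p and 3p arms of miR-296, 65.2% for miR-298-5p), while miR-335 was poor in them (30.4% for the 5p arm, 36.4% for the 3p arm).

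The hairpins of miR-296 and miR-335 are shown because their 5p shares stood furthest apart between treatments in percentage points; the mature arms are in capitals, 5p first.
miR-296 hairpin: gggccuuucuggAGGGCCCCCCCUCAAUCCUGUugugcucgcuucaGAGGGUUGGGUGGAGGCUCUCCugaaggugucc
miR-335 hairpin: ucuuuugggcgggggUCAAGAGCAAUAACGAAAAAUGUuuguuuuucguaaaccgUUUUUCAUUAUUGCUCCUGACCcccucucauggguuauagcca
The miR-296 hairpin lies at chr2:174267047-174267125 and the miR-298 hairpin at chr2:174267504-174267585, both on the minus strand with 378 bases between them. Nespas, the antisense RNA of the Gnas domain, is transcribed from the same strand, and its annotation stops 13651 bases before the miR-298 hairpin. The miR-335 hairpin lies at chr6:30741299-30741396 on the plus strand, in an intron of Mest. The miR-483 hairpin, at chr7:142654924-142654996 on the minus strand, lies within Igf2, and the miR-675 hairpin, at chr7:142577064-142577147 on the minus strand, lies in an exon of H19.

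Library depth ran from 1160582 to 12477032 reads. Normoxic libraries had 2492065 to 9117862 reads in wild type and 5884616 to 12477032 in knockout, and OGD libraries had 1160582 to 4374002 and 1811589 to 3119212. A count of 3 reads stands for 0.249 CPM at the greatest depth and 2.55 CPM at the smallest. One library stood apart: on the first principal component of 423 features (83.0% of the variance), normoxic wild-type replicate 5 lay at -0.88, the other 4 of its group at -14.46 to -13.09 and the OGD libraries at 7.00 to 15.05. Normoxic knockout libraries were spread, with replicates 1 and 3 at -13.49 and -14.46 and replicates 2, 4 and 5 nearer to the OGD libraries at -6.61, -6.46 and -9.69. The OGD differences and genotype differences that moved most without this library are also given without it. All 5 neuron markers were present, with a summed level of 48299 to 90858 CPM over the 20 libraries (miR-124-3p, miR-128-3p, miR-137-3p, miR-138-5p and miR-218-5p). Markers of oligodendrocyte lineage summed to 4.39 to 12.8 CPM, of blood and microglia to 0.743 to 5.59, of endothelium to 269 to 393 and of mesenchymal cells to 65.0 to 141. ciRS-7 has no row among these miRNA features, so the genotype labels were not checked against the deleted RNA.

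Of the 8 members, 6 were above 3 reads in every library and 2 were at 3 reads or fewer in all of them. In normoxic wild-type neurons the order of level was miR-335-3p (2131 CPM ± 285, SD, n = 5), miR-298-5p (1958 ± 250.2), miR-335-5p (1217 ± 281), miR-296-3p (434.4 ± 72.5), miR-296-5p (133 ± 31.1) and miR-298-3p (7.85 ± 1.11). The first 2 overlapped and did not differ beyond their spread; each later neighbour in the order lay below the whole range of the one before it. Among all features they ranked 50, 51, 66, 119, 184 and 404 by mean CPM. Ligation efficiency differs between small RNA sequences and was not corrected, so the order is of read levels.

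mmu-miR-483-5p, from Igf2, had 0 to 3 reads in every library and miR-483-3p 0 to 2. At least 1 read of miR-483-5p was seen in 4 of 5 normoxic and 4 of 5 OGD wild-type libraries, and in 5 of 5 and 3 of 5 knockout libraries. No level or fold is given for these arms, since all libraries were at or under the limit of 3 reads. The 6 members with a measurable level are all from the Gnas and Mest loci.

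**Figure D1:**
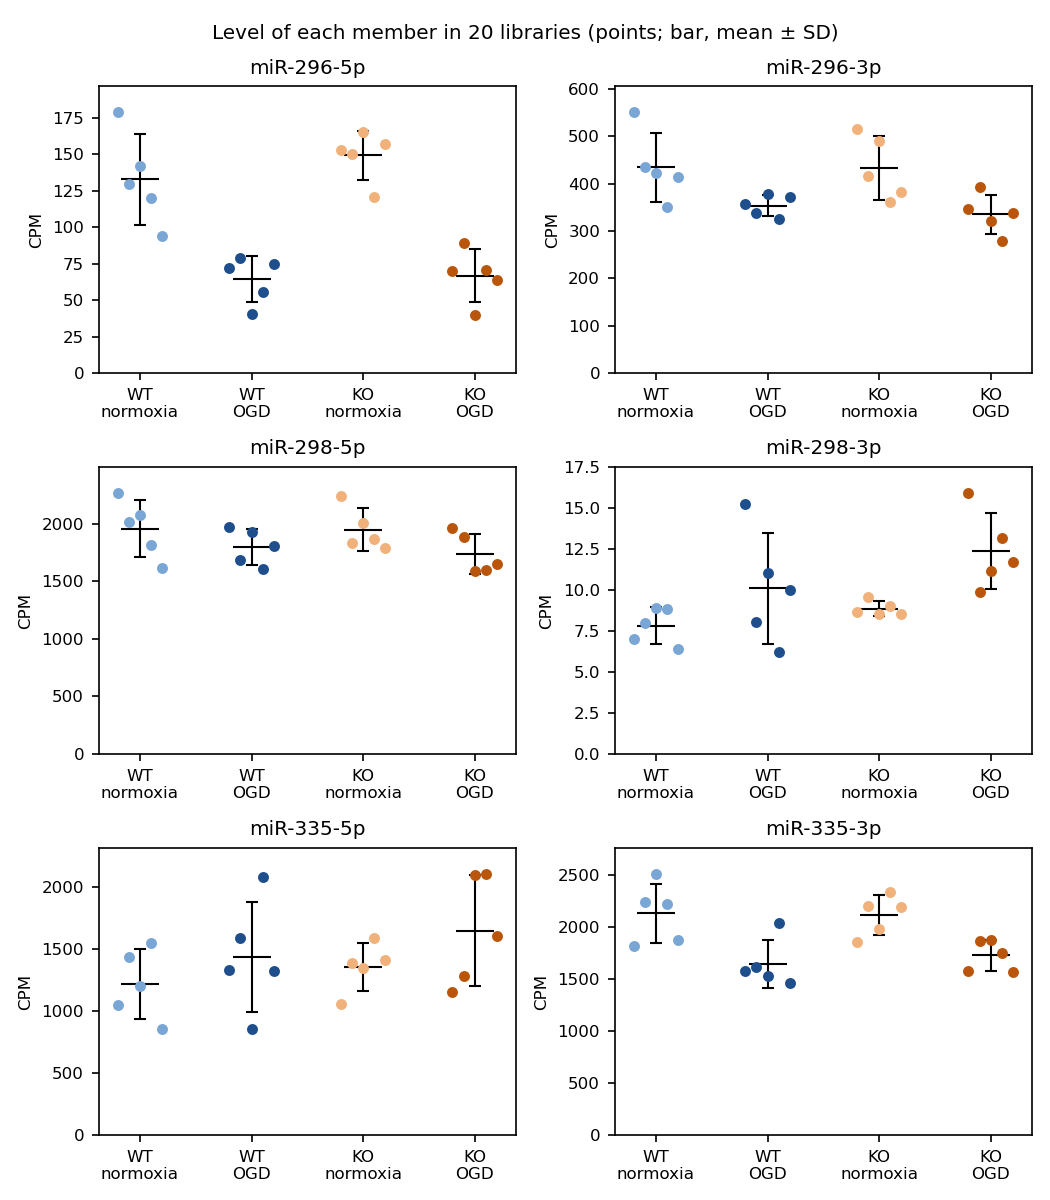
Level in CPM (vertical axis, from 0) of the 6 members above 3 reads, in the 5 libraries of each of the 4 groups (horizontal axis, replicates 1 to 5 from left to right); points are libraries and bars are mean ± SD. For miR-296-5p all OGD points (39.5 to 89.3 CPM) lie below all normoxic points (94.1 to 179 CPM).

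mmu-miR-296-5p was the member with the widest separation between treatments. In normoxic wild-type neurons its level was 179, 129.6, 142, 120.3 and 94.1 CPM in replicates 1 to 5 (133 ± 31.1), and after OGD it was 71.8, 78.7, 40.8, 55.6 and 74.8 CPM (64.3 ± 15.8). In knockout neurons it was 153, 150.1, 166, 121 and 157 CPM in normoxia (149 ± 17.0), and 70.2, 89.3, 39.5, 70.8 and 64.1 CPM after OGD (66.8 ± 17.9). In both genotypes every OGD library lay below every normoxic library, and the lowest normoxic library was wild-type replicate 5, the one that stood apart. The ratio of OGD to normoxic means was 0.484 in wild type and 0.448 in knockout. As log2(CPM + 0.5), a scale on which a rare miRNA's change is understated, the difference was -1.05 (SE 0.19) in wild type and -1.19 (SE 0.17) in knockout. Without normoxic wild-type replicate 5 it was -1.17 (SE 0.18) in wild type. OGD libraries were shallower, and after all libraries were thinned to 1160582 reads the difference was -1.03 in wild type and -1.23 in knockout. The rank of miR-296-5p among all features went from 184 in normoxia to 267 after OGD in wild type, and from 178 to 260 in knockout. The summed level of the neuron markers ran from 56064 to 88982 CPM in normoxia and from 48299 to 59256 after OGD in wild type (53141 to 90858 and 48869 to 59225 in knockout). The sum followed miR-128-3p, with a wild-type mean of 60839 CPM in normoxia and 40381 CPM after OGD, while the other 4 markers had higher means after OGD there. In knockout the normoxic and OGD means were 63757 and 43234 CPM for miR-128-3p and 5228 and 5059 CPM for miR-218-5p, and the other 3 markers had higher means after OGD. Of the other marker lists, that of oligodendrocyte lineage (miR-219a-5p and miR-338-3p) summed to 4.53 to 7.55 CPM in normoxia and 5.10 to 10.8 after OGD in wild type. In knockout it summed to 4.39 to 6.54 and 6.78 to 12.8, without overlap, where 15.3% of all features lay wholly above. The sum was nearly all miR-338-3p, with means of 5.18 and 6.90 CPM in wild type and 5.04 and 8.98 in knockout. miR-219a-5p was near the floor, with means of 0.811 and 0.516 in wild type and 0.502 and 0.746 in knockout. Sums of the blood and microglia, endothelium and mesenchymal lists overlapped between treatments in both genotypes. The part of these markers in the result was not tested. In bulk libraries, fewer cells of a type and less of an RNA per cell cannot be told apart.

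mmu-miR-296-3p, the other and more abundant arm of the same hairpin, stood closer between treatments. Its wild-type level was 551, 433.9, 422, 351 and 415 CPM in normoxia (434.4 ± 72.5) and 356, 338, 377.2, 325 and 371 CPM after OGD (354 ± 21.7). In knockout it was 515, 416, 489.9, 360.3 and 383 CPM in normoxia (432.8 ± 67.3) and 347, 393, 320.3, 279 and 337.1 CPM after OGD (335.2 ± 41.4). The groups overlapped in both genotypes, replicate 4 being the lowest normoxic library each time. The log2 difference was -0.28 (SE 0.12) in wild type and -0.36 (SE 0.11) in knockout. It was -0.84 and -0.87 with libraries centred on their median feature, and -0.48 and -0.45 after quantile normalization.

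mmu-miR-298-5p comes from the hairpin next to miR-296 and is the dominant arm there. Its wild-type level was 2268, 2016, 2074, 1819 and 1614 CPM in normoxia (1958 ± 250.2) and 1972, 1689.8, 1928, 1609 and 1805 CPM after OGD (1801 ± 153.9). Knockout levels were 2244, 1836, 2010.2, 1871 and 1788 CPM in normoxia (1949.9 ± 184) and 1961, 1889, 1594, 1597 and 1653 CPM after OGD (1739 ± 174). The groups overlapped in both genotypes. The log2 difference was -0.12 (SE 0.10) in wild type, -0.18 without normoxic replicate 5, -0.060 without normoxic replicate 1, -0.076 without OGD replicate 4, and -0.17 (SE 0.09) in knockout, so the ratio of OGD to normoxic means was 0.92 in wild type where that of miR-296-5p was 0.484. With centring the log2 difference was -0.68 in both genotypes, and after quantile normalization it was -0.22 in wild type and -0.33 in knockout.

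mmu-miR-298-3p, the rare arm of that hairpin, rested on 9 to 104 reads per library. Its wild-type level was 7.01, 8.0, 8.92, 8.88 and 6.42 CPM in normoxia (7.85 ± 1.11) and 15.2, 8.04, 11.04, 6.26 and 10.04 CPM after OGD (10.1 ± 3.402). The knockout libraries stood at 8.65, 9.59, 8.53, 9.07 and 8.57 CPM in normoxia (8.88 ± 0.451) and 15.9, 9.88, 11.2, 13.2 and 11.7 CPM after OGD (12.4 ± 2.32). The wild-type groups overlapped; in knockout all OGD libraries were above all normoxic ones. The log2 difference was 0.30 (SE 0.24) in wild type and 0.44 (SE 0.16) in knockout, but it was -0.26 and -0.070 when libraries were centred on their median feature, and -0.35 and -0.14 after quantile normalization. Without OGD replicate 1, the highest library, the wild-type value was 0.14.

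mmu-miR-335-5p is the less abundant normoxic arm of the Mest hairpin. Its wild-type level was 1051, 1435, 1199, 1547 and 855 CPM in normoxia (1217 ± 281) and 1330.2, 1589, 855, 2078 and 1325 CPM after OGD (1435 ± 446). In knockout neurons the values were 1059, 1384, 1343, 1589 and 1410.0 CPM in normoxia (1357 ± 191) and 1152, 1284, 2097, 2105 and 1607 CPM after OGD (1649 ± 444). The groups overlapped in both genotypes and the OGD libraries were the more spread. The log2 difference was 0.21 (SE 0.19) in wild type and 0.25 (SE 0.16) in knockout, but -0.35 and -0.26 when libraries were centred, and 0.063 and 0.15 after quantile normalization. The wild-type value was 0.092 without normoxic replicate 5, 0.38 without OGD replicate 3 and 0.063 without OGD replicate 4. The knockout value was 0.16 without normoxic replicate 1 and 0.15 without OGD replicate 3 or 4.

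mmu-miR-335-3p, the other Mest arm, had the highest mean of the members in normoxia, though miR-298-5p was higher in wild-type replicate 1 and in knockout replicates 1 and 3. Its wild-type level was 1814, 2236, 2508, 2221 and 1878 CPM in normoxia (2131 ± 285) and 1575, 1619, 1525, 2042 and 1458 CPM after OGD (1644 ± 230.5). Knockout values were 1853, 2201, 1982, 2337 and 2189 CPM in normoxia (2112 ± 193) and 1580.2, 1865, 1874, 1749 and 1562 CPM after OGD (1726 ± 149.7). The wild-type groups overlapped through OGD replicate 4 alone, at 2042 CPM, and the knockout groups through normoxic replicate 1 with OGD replicates 2 and 3. The log2 difference was -0.37 (SE 0.11) in wild type and -0.29 (SE 0.09) in knockout, -0.94 and -0.80 with centring, and -0.49 and -0.44 after quantile normalization.

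Counted over the set, 2 of 8 members passed limma's adjusted p threshold of 0.05 in wild type, miR-296-5p and miR-335-3p, both lower after OGD. Among all 1478 features tested there, 23.1% passed, 18.7% higher and 4.4% lower. In knockout 3 of 8 passed, miR-296-5p, miR-296-3p and miR-335-3p, all lower, where 24.5% of 1479 features passed, 18.8% higher and 5.75% lower. Of the 423 features at the same level, 156 passed higher and 70 lower in knockout. Groups that did not overlap were seen for miR-296-5p in wild type, where 2.57% of all features lay wholly below and 13.5% wholly above. In knockout they were seen for miR-296-5p, below (3.79% of all features), and for miR-298-3p, above (15.3%). The counts shifted with the libraries and the scaling: without 1 library they were 1 to 2 in wild type and 1 to 4 in knockout, and the wild-type count was 4 after centring. miR-335-3p in wild type and miR-296-3p in knockout were each past the threshold in 13 of 20 alternatives, and miR-335-3p in knockout in 16 of 20. The wild-type call of miR-335-3p was lost without normoxic replicate 2, 3 or 4 or OGD replicate 1, 3 or 5, with log2 differences from -0.36 to -0.31, and after thinning to equal depth (-0.37). In knockout the call of miR-296-3p was lost without normoxic replicate 1, 2 or 3 or OGD replicate 1, 3 or 4 (-0.38 to -0.30) and after thinning (-0.39). That of miR-335-3p in knockout was lost without normoxic replicate 2 or 4 or OGD replicate 1 or 5 (-0.27 to -0.25). Since the treatment contrast served to choose the set, nothing is read from these counts.

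The 6 members above 3 reads had a median log2 difference of -0.20 in wild type and -0.23 in knockout. Among features whose mean log2(CPM + 0.5) reached 3 (423 of them), the median was 0.22 and 0.20. That common shift depends on the scaling: with each library centred on its median feature it was -0.34 and -0.31, and with quantile normalization -0.11 and -0.089. The share of higher calls in wild type was 80.9% with the effective library sizes, 29.0% of 373 calls after centring and 42.5% of 332 after quantile normalization. The knockout share was 76.6% of 363, 25.7% of 436 and 43.1% of 327 after the same steps. miR-296-5p was at -1.61 and -1.70 after centring and at -1.56 and -1.61 after quantile normalization.

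**Figure D2:**
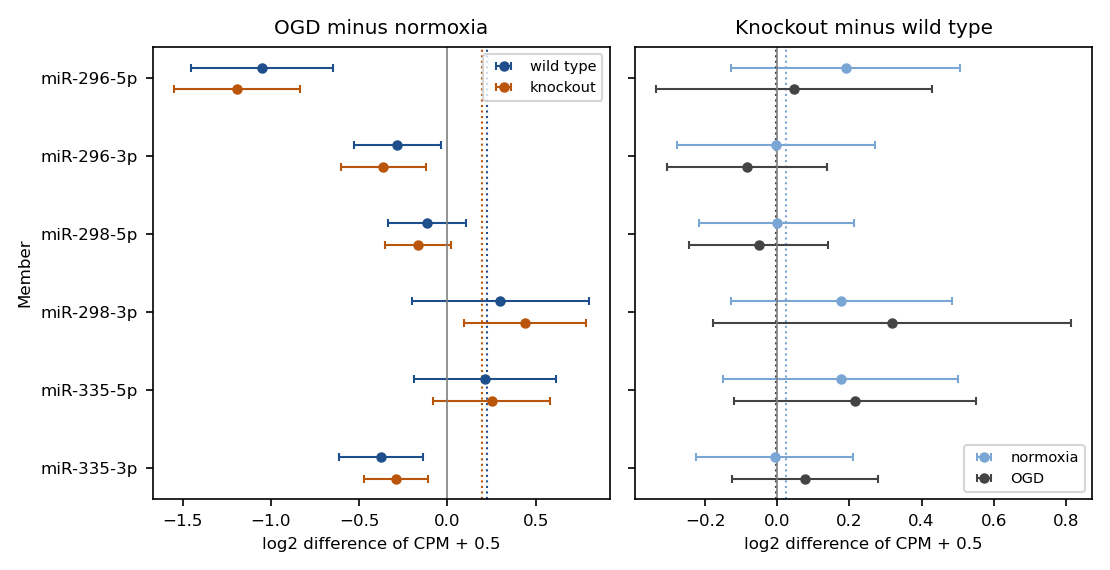
Difference in log2(CPM + 0.5) (horizontal axis) of the 6 members (vertical axis), with 95% intervals of the limma fit; the left panel is OGD minus normoxia in each genotype, the right panel knockout minus wild type in each treatment, and the dotted lines are medians of 423 features. miR-296-5p lies at -1.05 and -1.19 on the left, where miR-298-3p and miR-335-5p lie above 0 but below 0 when libraries are centred; on the right all 12 intervals include 0.

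Whether loss of ciRS-7 moved these miRNAs was tested within each treatment. In normoxia none of the 8 members passed (limma, 0 of 1481 features called, 0%; 47 features but no member had an unadjusted p under 0.05, and limma voom also called 0). The knockout minus wild-type log2 difference of miR-296-5p was 0.19 (SE 0.15, 95% interval -0.13 to 0.51, limma adjusted p = 0.984). It was 0.18 for miR-335-5p (-0.15 to 0.50) and 0.18 for miR-298-3p (-0.13 to 0.48), which was 0.44 after thinning to equal depth and also did not pass. For miR-296-3p, miR-298-5p and miR-335-3p the intervals were -0.28 to 0.27, -0.22 to 0.21 and -0.23 to 0.21, and the sign of these 3 turned with the scaling. Without normoxic wild-type replicate 5 the miR-296-5p difference was 0.073, the miR-335-5p difference 0.057 and the miR-298-3p difference 0.11. Without normoxic wild-type replicate 1 the miR-296-5p difference was 0.30, and the miR-335-5p difference was 0.27 without wild-type replicate 4 and 0.12 without knockout replicate 4. For no member did the groups fail to overlap, where 0.203% of features lay wholly above and 0.338% wholly below.

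After OGD none of the 8 members passed either (limma, 0 of 1481 features, 0%; 108 features but no member at an unadjusted p under 0.05; limma voom 0). The log2 difference of miR-296-5p was 0.046 (SE 0.19, 95% interval -0.34 to 0.43, limma adjusted p = 0.988), with a sign that turned to -0.0051 under limma voom. miR-298-3p had the widest interval, 0.32 (-0.18 to 0.82), and miR-335-5p stood at 0.22 (-0.12 to 0.55). Single wild-type libraries weighed on both: miR-335-5p was at 0.043 without OGD replicate 3 and 0.36 without OGD replicate 4, and miR-298-3p at 0.17 without OGD replicate 4. Leaving out knockout OGD replicates 1, 3 or 4 gave 0.33, 0.12 and 0.12 for miR-335-5p. For miR-296-3p, miR-298-5p and miR-335-3p the intervals were -0.31 to 0.14, -0.24 to 0.14 and -0.13 to 0.28. No member had groups without overlap, against 0.405% of features wholly above and 0.54% wholly below.

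The interaction asked whether the OGD difference itself depended on genotype, over all 20 libraries. No member passed (limma, 0 of 1481 features, 0%; 74 features but no member at an unadjusted p under 0.05; limma voom 0). The difference of differences was -0.14 (SE 0.27, 95% interval -0.70 to 0.41, limma adjusted p = 0.99) for miR-296-5p, and -0.027 without normoxic wild-type replicate 5. For miR-296-3p it was -0.079 (-0.42 to 0.26) and for miR-335-3p 0.084 (-0.21 to 0.38). Leaving out 1 library at a time, these values ran from -0.17 to -0.0065 and from 0.023 to 0.17. The intervals were -0.33 to 0.23 for miR-298-5p, -0.44 to 0.72 for miR-298-3p and -0.52 to 0.60 for miR-335-5p. The interval of miR-296-5p thus allows a difference between genotypes of up to 0.70 on the log2 scale, where the OGD differences themselves were -1.05 and -1.19.

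The share of a locus's reads that came from the 5p arm compares the arms within a library and does not depend on library scaling. For miR-296 the 5p share in wild type was 24.5, 23.0, 25.2, 25.5 and 18.5% in normoxia (23.3% ± 2.88, SD, n = 5) and 16.8, 18.9, 9.76, 14.6 and 16.8% after OGD (15.4% ± 3.48). In knockout it was 22.9, 26.5, 25.3, 25.1 and 29.0% in normoxia (25.8% ± 2.25) and 16.8, 18.5, 10.98, 20.3 and 15.97% after OGD (16.5% ± 3.51). The 3p arm thus held most miR-296 reads in every library. The wild-type groups overlapped only through normoxic replicate 5 (18.5%) and OGD replicate 2 (18.9%), so without normoxic replicate 5 they did not overlap, and the knockout groups did not overlap. Reads of both arms together went from a mean of 567 to 418 CPM in wild type and from 582 to 402 CPM in knockout.

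miR-335 stood the other way round. Its 5p share in wild type was 36.7, 39.1, 32.3, 41.1 and 31.3% in normoxia (36.1% ± 4.22) and 45.8, 49.5, 35.9, 50.4 and 47.6% after OGD (45.9% ± 5.83). Knockout shares were 36.4, 38.6, 40.4, 40.5 and 39.2% in normoxia (39.0% ± 1.68) and 42.2, 40.8, 52.8, 54.6 and 50.7% after OGD (48.2% ± 6.33). In wild type only OGD replicate 3 lay within the normoxic range, and in knockout the groups did not overlap, by a margin of under 1 percentage point. The whole locus had a wild-type mean of 3349 CPM in normoxia and 3079 CPM after OGD, and 3469 and 3375 CPM in knockout.

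The rare arm of miR-298 is its 3p arm. In wild type it held 0.308, 0.395, 0.428, 0.486 and 0.396% of the locus's reads in normoxia and 0.767, 0.473, 0.569, 0.387 and 0.553% after OGD. In knockout it held 0.384, 0.520, 0.422, 0.482 and 0.477% in normoxia and 0.806, 0.520, 0.696, 0.819 and 0.703% after OGD. The wild-type groups overlapped and the knockout groups were barely separate, at 0.520% in both normoxic replicate 2 and OGD replicate 2. The 95% Wilson interval of the 5p share of miR-298 in OGD wild-type replicate 4 ran from 99.3 to 99.8%, which covers counting error only, so single libraries do not fix the rare arm closely. Among all loci with at least 20 reads in each library, summed over both arms, 26.7% of 202 had 5p shares without overlap between treatments in wild type and 30.6% of 216 in knockout, where 0 and 3 of the 3 loci miR-296, miR-298 and miR-335 had them.

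**Figure D3:**
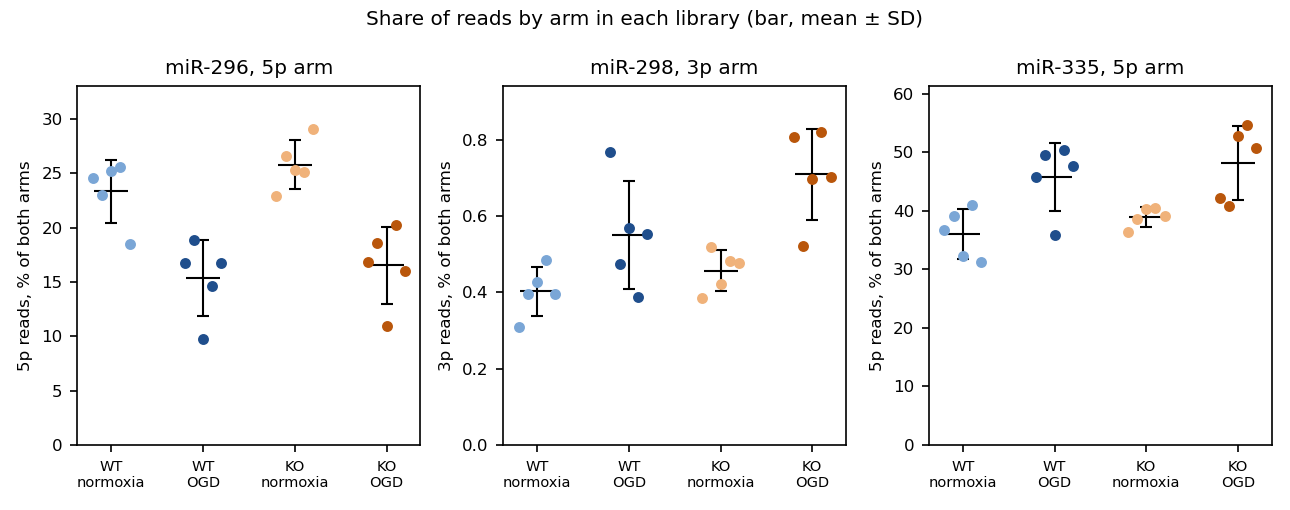
Percent of a locus's reads from the named arm (vertical axis, from 0) in the 5 libraries of each of the 4 groups (horizontal axis, replicates 1 to 5 from left to right); points are libraries and bars are mean ± SD. The miR-296 5p share has means of 23.3 and 25.8% in normoxia and 15.4 and 16.5% after OGD, and the miR-335 5p share 36.1 and 39.0% against 45.9 and 48.2%.

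Genotype was tested on the same shares, in 6 exact two-sided permutation tests of 5 against 5 libraries whose smallest possible p is 0.0079. In normoxia the knockout minus wild-type difference in 5p share was 2.43 percentage points for miR-296 (p = 0.198), 2.91 for miR-335 (p = 0.230) and -0.0543 for miR-298 (p = 0.214) in these exact tests. Without normoxic wild-type replicate 5 it was 1.21 points for miR-296 and 1.71 for miR-335, and that of miR-298 ran from -0.0750 to -0.0307 when 1 library was left out. After OGD it was 1.15 points for miR-296 (exact p = 0.587), 2.35 for miR-335 (exact p = 0.563) and -0.159 for miR-298 (exact p = 0.103). Without wild-type OGD replicate 3 the values after OGD were -0.247 for miR-296 and -0.128 for miR-335. The Benjamini-Hochberg adjusted values over the 6 exact tests were 0.345 or 0.587, so no difference in share passed the threshold of 0.05. None of miR-296, miR-298 and miR-335 had shares without overlap between genotypes, against 0.444% of 225 loci in normoxia and 1.91% of 209 after OGD.

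How far the arms of a hairpin stood apart was also measured at the other loci. The OGD log2 difference of the 5p arm minus that of the 3p arm was -0.77 for miR-296 in wild type, rank 31 by size among 100 loci whose arms both reached a mean log2 of 3, and -0.83 in knockout, rank 28 of 98. For miR-335 it was 0.59 (rank 45) and 0.54 (rank 47), and for miR-298 -0.42 (rank 62) and -0.61 (rank 41). The median size over all loci was 0.52 in wild type and 0.51 in knockout. Arms with opposite signs, as at miR-298 and miR-335 with the effective library sizes, were seen at 52 of 100 loci in wild type (52%) and 50 of 98 in knockout (51.0%). After centring, both arms of these 2 loci had negative values in both genotypes, while the difference between the arms is not changed by centring.

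**Figure D4:**
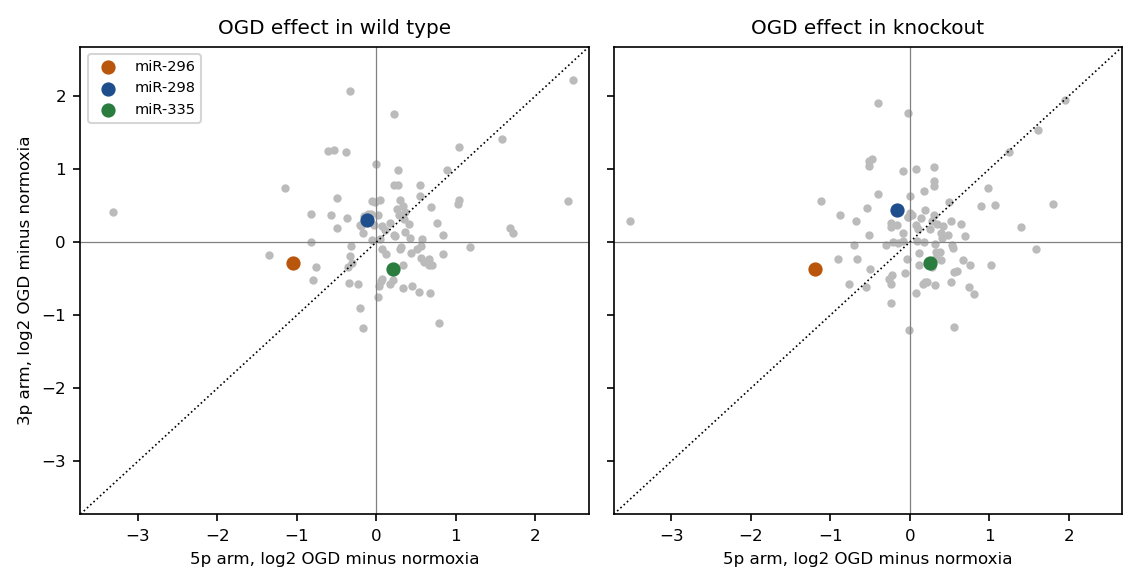
OGD minus normoxia in log2(CPM + 0.5) of the 5p arm (horizontal axis) against the 3p arm (vertical axis) for 100 loci in wild type and 98 in knockout; grey points are other loci and the dotted line marks equal differences. miR-296 lies to the left of the line at -1.05 and -0.28 in wild type, inside the spread of the other loci.

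Within the groups, levels were also compared library by library. With group means subtracted, Pearson's r of log2(CPM + 0.5) over the 20 libraries was 0.74 between miR-296-3p and miR-298-5p, 0.46 between miR-296-5p and miR-298-5p, and 0.38 between the arms of miR-296. The arms of miR-335 had r = 0.65. Across loci, miR-296-3p and miR-335-5p had r = -0.62. These values are descriptions over points that share library depth and scaling, and the part of depth, scaling and base composition in them was not tested.

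The features most like each member by the same measure, out of 422, were for miR-296-5p miR-1983 (r = 0.75), miR-935 (0.75) and miR-328-3p (0.70). Without subtracting group means they were miR-328-3p (0.94), miR-411-3p (0.92) and miR-434-3p (0.92), of which the last 2 belong to the imprinted Dlk1-Dio3 domain. Those values hold the difference between treatments, which chose the set, so nothing is read from them. For miR-296-3p, with group means subtracted, the most alike features were miR-532-5p (0.82), let-7b-5p (0.81) and miR-423-5p (0.79). For miR-298-5p they were let-7d-5p (0.89), let-7e-5p (0.88) and let-7a-5p (0.82), and for the rare miR-298-3p miR-30d-3p (0.65), miR-7a-1-3p (0.55) and miR-425-3p (0.53). For miR-335-5p they were miR-19b-3p (0.86), miR-19a-3p (0.84) and miR-30a-5p (0.79), and for miR-335-3p miR-29a-3p (0.81), miR-212-5p (0.73) and miR-329-5p (0.71). Over all features, G and C content and the OGD log2 difference had Pearson's r = 0.18 in wild type and 0.15 in knockout and Spearman's rho = 0.031 and 0.025 across 367 of 423 features, which are not independent replicates.

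Other imprinted miRNAs were counted in the same fits. Of 102 arms of the Dlk1-Dio3 domain, 20 were called higher and 14 lower after OGD in wild type, with a median log2 difference of 0.15. After centring 8 were higher and 42 lower (median -0.41), and after quantile normalization 8 and 30 (median -0.29). In knockout 22 were called higher and 18 lower (median 0.0078), against 8 and 49 after centring (median -0.50) and 8 and 36 after quantile normalization (median -0.30). Its most abundant arm, miR-127-3p, stood at -0.31 (SE 0.10) in wild type and -0.40 (SE 0.08) in knockout, and the next, miR-381-3p, at 0.067 and 0.025. Of 74 features with names of the Sfmbt2 intron cluster, 31 were called higher and 0 lower in wild type (median 0.75), and 25 higher and 0 lower in knockout (median 0.55). After centring the counts were 11 higher and 1 lower in wild type (median 0.19) and 13 and 3 in knockout (median 0.042). After quantile normalization they were 10 and 0 (median 0.20) and 11 and 1 (median 0.059). Those features are near-identical copies, so reads may be split between them. All features tested had medians of 0.32 and 0.24, with 18.7% called higher and 4.4% lower in wild type and 18.8% and 5.75% in knockout. At a mean log2 of at least 3, 143 of 423 features were called higher and 57 lower in wild type. There 16 and 13 of 63 Dlk1-Dio3 arms were called, and 9 and 0 of 13 Sfmbt2 features. In knockout these counts were 156 and 70, 16 and 15, and 5 and 0. The lists were not tested as sets. No feature of either list passed in the genotype comparisons or the interaction.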

How the data were processed

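Per the labels' protocols, small RNA libraries were size-selected after a NEBNext preparation. The genome build was mm10, per the submitters' processing notes. The aligner, the miRBase release and the handling of shared reads are not given in the sources used here. The authors deposited 6 tables of a normalized score per miRNA and library, 1 for each pair of groups. Worked out from the values, each deposited score was a whole read count divided by an effective library size, raised to a power of 0.106 to 0.118. That size is the total times a factor (0.923 to 1.08), known only up to a constant per table. Within each group of 5 the extremes had been limited at the quantile 0.16 and its mirror. Undoing this gave whole reads for 100% of values in each table (tolerance 0.1, largest distance 6.64e-07), with 0 differences in 88690 comparisons of libraries between tables. Without restoring the extremes 76.1 to 78.3% were whole.

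CPM used each total times its factor. limma (3.58.1, R 4.3.3, eBayes with trend) was fitted on log2(CPM + 0.5) over all features of the groups compared, two-sided, with Benjamini-Hochberg adjustment and a threshold of 0.05, and was tested on simulated data. Shares were compared by exact permutation (SciPy 1.17.1, Python 3.11.15). No pair of replicates matched within sampling noise (lowest chi-square per degree of freedom 16.8). Reads without molecular identifiers are not independent molecules, so the Wilson intervals and the limit of 3 reads cover counting error only. The limma intervals rest on the spread between libraries. Members and lists were chosen with earlier results of these data known. All 10 members are accounted for, and likeness is given for the 3 features with the highest r.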

Additional observations from a re-analysis of the deposited data

Results flagged for a closer look

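One value was far from the others of its group. In wild-type neurons after OGD, miR-335-3p was at 2042 CPM in replicate 4, while the other 4 libraries lay between 1458 and 1619 CPM. Chance marks about 1 in 20 groups in this way, and 1 of 36 groups looked at was marked. The same library also held the highest wild-type OGD level of miR-335-5p, 2078 CPM.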

How the results depend on the processing

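Under 20 alternatives the miR-296-5p difference between OGD and normoxia, which chose the set and so is a description, ran from -1.61 to -0.90 in wild type and from -1.70 to -1.02 in knockout (log2). The number of members past the threshold in wild type, 2, became 4 when libraries were centred on their median feature and 1 when they were thinned to equal depth, and in knockout 3 became 5 under limma voom, 1 of the 5 being miR-483-3p, whose 0 to 2 reads give no usable level. Leaving out 1 library at a time gave 1 to 2 in wild type and 1 to 4 in knockout. In wild type miR-335-3p was lost without normoxic replicate 2, 3 or 4 or OGD replicate 1, 3 or 5 (down to -0.31). In knockout miR-296-3p was lost without normoxic replicate 1, 2 or 3 or OGD replicate 1, 3 or 4 (down to -0.30), and miR-335-3p without normoxic replicate 2 or 4 or OGD replicate 1 or 5 (down to -0.25). Thinning also lost miR-335-3p in wild type (-0.37) and miR-296-3p in knockout (-0.39). Fewer libraries and fewer reads were then tested; otherwise the cause was not tested.

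Centring turned the OGD differences of miR-298-3p and miR-335-5p to -0.26 and -0.35 in wild type and to -0.070 and -0.26 in knockout, and quantile normalization turned miR-298-3p to -0.35 and -0.14. The OGD calls over all features in wild type, 23.1% of 1478, became 223 features after a filter on low values (fewer genes tested) and 693 features under limma voom, and 363 in knockout became 784 under limma voom.

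No genotype or interaction value of a member passed in any of 414 alternative values. The sign of 40 of them turned, none of those outside leave-one-out fits being larger than 0.062. In normoxia, miR-298-5p and miR-335-3p were 0.062 and 0.053 after quantile normalization. miR-296-3p was 0.023 after thinning and 0.016 on the deposited scores, where miR-335-3p was 0.013. With plain library totals, an alternative chosen after seeing the data, miR-296-3p, miR-298-5p and miR-335-3p were 0.023, 0.025 and 0.019. After OGD, miR-298-5p was 0.030 after centring and miR-296-5p -0.0051 under limma voom. For the interaction, miR-298-5p was 0.019 after centring, miR-296-3p 0.028 after quantile normalization and miR-298-3p -0.051 after thinning. Leaving out libraries gave -0.077 to 0.085 for miR-296-3p, -0.069 to 0.054 for miR-298-5p and -0.063 to 0.054 for miR-335-3p in normoxia, and -0.11 to 0.22 for miR-296-5p after OGD. For the interaction it gave -0.30 to 0.032 for miR-296-5p, -0.11 to 0.017 for miR-298-5p, -0.0081 to 0.30 for miR-298-3p and -0.13 to 0.19 for miR-335-5p. The genotype difference in 5p share in normoxia ran from 1.21 to 3.14 points for miR-296 and from 1.71 to 4.15 for miR-335. After OGD it ran from -0.247 to 2.54 points for miR-296 and from -0.128 to 4.21 for miR-335. Over all features, the genotype fits on the deposited scores, whose extremes are pulled in, called 33 features in normoxia and 72 after OGD, and leaving out knockout OGD replicate 5 gave 22 calls after OGD where the full fit gave 0. Leaving out wild-type OGD replicate 1 gave 1 interaction call. None of these genotype and interaction calls is a member.

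The labels give libraries of both treatments the same replicate numbers. Whether equal numbers mark the same culture is not stated, so the main fits used no block and their intervals ignore any pairing. Same-numbered libraries did not all deviate together (correlation -0.17 to 0.66 in wild type, 3 of 5 best with their own number, and -0.21 to 0.49 in knockout, 2 of 5). With the replicate number as a block, 389 features and 3 members passed in wild type and 403 features and 4 members in knockout, with 0 in the other comparisons. miR-296-3p in wild type (-0.28) and miR-335-5p in knockout (0.25) then passed.

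Depth limits the rare arms: miR-298-3p rested on as few as 9 reads in a library, and the arms of miR-483 were at or under 3 reads throughout.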
